A study of Mus musculus with 12 samples.

Results

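The 10 genes described here are BMP and GDF ligands (*Bmp2*, *Bmp4*, *Bmp5*, *Bmp7*, *Gdf5* and *Gdf6*), the type I receptors *Bmpr1a* and *Bmpr1b*, and the secreted antagonists *Nog* and *Grem1*. They were taken by symbol from a table of 15671 gene entries, and all 10 were found. The study asked which genes the tendon transcription factor Scleraxis (Scx) binds and which depend on it in the developing mouse limb. RNA-seq was performed on Scx-GFP+ forelimb cells, isolated by flow sorting at E15.5 from 3 Scx-/- embryos and 3 control littermates. Scx binding was mapped by anti-FLAG ChIP-seq in whole forelimbs at E13.5, with 3 ChIP samples of 10 pooled pairs of forelimbs each and 3 input samples, all from *Scx Flag/Flag* embryos. The Scx- allele carries a LacZ cassette in place of the *Scx* coding sequence, the Flag allele adds a 2xFLAG tag at the carboxy terminus of endogenous Scx, and both RNA-seq groups carried the Scx-GFP transgene. The labels call the other group control, the study's text calls it control or wildtype littermates, and the crosses also gave Scx+/- embryos. The sort marks cells by activity of a *Scx* transgene and not by tendon identity. The ChIP tissue held every cell type of the limb, though only cells that make tagged Scx can give binding. The RNA and ChIP samples thus came from different stages and different cell mixtures.

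For RNA, the values are the authors' mean FPKM (fragments per kilobase of transcript, scaled to the mapped fragments of each library) of the 3 samples of each genotype. Values of single samples and read counts were not used here, so the depth and the spread between embryos are unknown, no difference could be tested, and each ratio below describes 2 means. In RNA from sorted cells, fewer cells of a type and less RNA per cell cannot be told apart. Ratios are log2 of Scx-/- over control after adding 0.1 FPKM to both means, which pulls the ratio of a low gene toward 0. For binding, the table lists 12097 Scx peaks of 200 bp on mm10, which the authors kept where ChIP exceeded input 4-fold with an FDR of 0.01, and carries no peak heights. A peak was given to a gene when its center lay in the gene's domain, which runs from 5 kb upstream to 1 kb downstream of the transcription start site (TSS) and then out to the neighboring genes' domains, over at most 1000 kb on each side. Such a domain says where a peak lies and not which gene it acts on.

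BMPs and GDFs are secreted dimers of the TGF-β superfamily. They bring together type I and type II serine/threonine kinase receptors on the cell surface, and the type I receptor then phosphorylates Smad1, Smad5 and Smad9, which enter the nucleus with Smad4 and switch on genes of the Id and Msx families. Antagonists such as Noggin and Gremlin bind the ligands outside the cell and keep them from their receptors. In the limb these signals pattern the digits, drive cartilage formation, place the joints and shape the bony eminences to which tendons attach.

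The order of levels was the same in both genotypes. *Bmpr1a* was highest, followed by *Bmp4*, *Grem1*, *Bmp7*, *Bmp5*, *Bmpr1b*, *Bmp2*, *Gdf5*, *Gdf6* and *Nog*, with mean levels of 64.4 to 0.604 FPKM in Scx-/- cells and 59.4 to 0.381 FPKM in control cells. Without the spread between embryos, neighbors in this order such as *Bmp7* and *Bmp5* cannot be separated. In all, 9 members had a mean of at least 1 FPKM in either genotype, and *Nog* stayed under it. None of the 9 reached a 1.5-fold ratio in either direction, while 1.27% of the 12274 genes of at least 1 FPKM did. With so small a share, finding none among 9 is near the background. None was at least 25% higher in Scx-/- cells, against 3.5% of all genes, and none at least 20% lower, against 2.88%. The ratio was above 1 for 5 members and below 1 for 4, with a median log2 ratio of 0.03, beside a median of -0.00 and a 5th to 95th percentile of -0.25 to 0.27 over all genes. The median size of the log2 ratio was 0.14 for the 9 members and 0.08 for all genes.

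**Figure D1:**
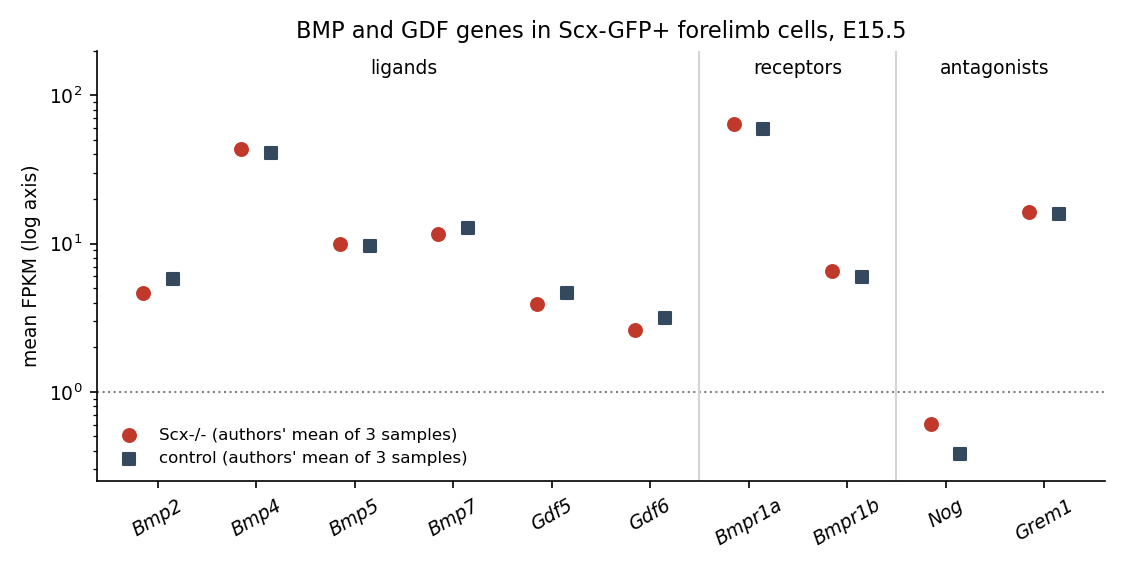
Authors' mean FPKM (log axis) of the 10 BMP and GDF genes in Scx-GFP+ forelimb cells at E15.5, with a red circle for the mean of 3 Scx-/- samples and a blue square for the mean of 3 control samples; no error bars are drawn because values of single samples were not used. The pairs of points lie close together for each gene, *Bmpr1a* is highest (64.4 in Scx-/- and 59.4 in control cells), and only *Nog* lies under the dotted line at 1 FPKM.

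*Bmp4*, which acts in early limb patterning and in the formation of bone eminences under tendons, was the most abundant ligand. Its mean was 43.7 FPKM in Scx-/- cells and 41.0 FPKM in control cells, a log2 ratio of 0.09. *Bmp4* made up 57.2% of the summed FPKM of the 6 ligands in Scx-/- cells and 53.3% in control cells. The summed ligand level was nearly equal in the 2 genotypes, at 76.3 FPKM in Scx-/- cells and 77.0 FPKM in control cells. *Bmp7*, a ligand of limb mesenchyme that the kidney and eye also need, averaged 11.6 FPKM in Scx-/- cells and 12.8 FPKM in control cells (log2 ratio -0.14). *Bmp5*, known from the short ear mutation for its part in shaping cartilage, averaged 9.87 FPKM in Scx-/- cells and 9.69 FPKM in control cells (0.03).

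The 3 least abundant ligands all had lower means in Scx-/- cells. *Bmp2*, a ligand of cartilage and bone growth, averaged 4.67 FPKM in Scx-/- cells and 5.74 FPKM in control cells, a log2 ratio of -0.29. *Gdf5*, which marks the future joint, averaged 3.93 FPKM in Scx-/- cells and 4.63 FPKM in control cells (-0.23). *Gdf6*, a close relative of *Gdf5* that is also needed at joints, averaged 2.60 FPKM in Scx-/- cells and 3.15 FPKM in control cells (-0.27). *Bmp2* and *Gdf6* lay below the 5th percentile of all genes (-0.25), and *Gdf5* lay above it. Of all genes of at least 1 FPKM, 7.83% had a larger log2 ratio in size than *Bmp2*, 9.35% than *Gdf6* and 12.5% than *Gdf5*. Among the genes within 2-fold of each ligand's own level, the share was 6.71% for *Bmp2*, 15.48% for *Gdf6* and 14.7% for *Gdf5*.

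The ligands differed widely in how many Scx peaks lay around them. *Bmp2* (chr2:133552159-133562885, plus strand) had 15 in a domain of 1601 kb, *Bmp4* (chr14:46383520-46390669, minus strand) had 6 in 375 kb, *Bmp5* (chr9:75775364-75900310, plus strand) had 2 in 321 kb, *Bmp7* (chr2:172868012-172940321, minus strand) had 2 in 424 kb, *Gdf6* (chr4:9844372-9862345, plus strand) had 1 in 1170 kb and *Gdf5* (chr2:155941023-155945367, minus strand) had none in 9.83 kb. Members with a peak in the domain thus numbered 8 of the 9 of at least 1 FPKM and 9 of all 10. Over 11663 genes of at least 1 FPKM that were matched to a TSS, 46.7% had a peak in the domain. The members' domains were longer (median 444 kb, against 99.6 kb for those genes), so the count has to be read against length. Per megabase of domain the members held 7.27 peaks, against 5.91 for all of those genes.

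**Figure D2:**
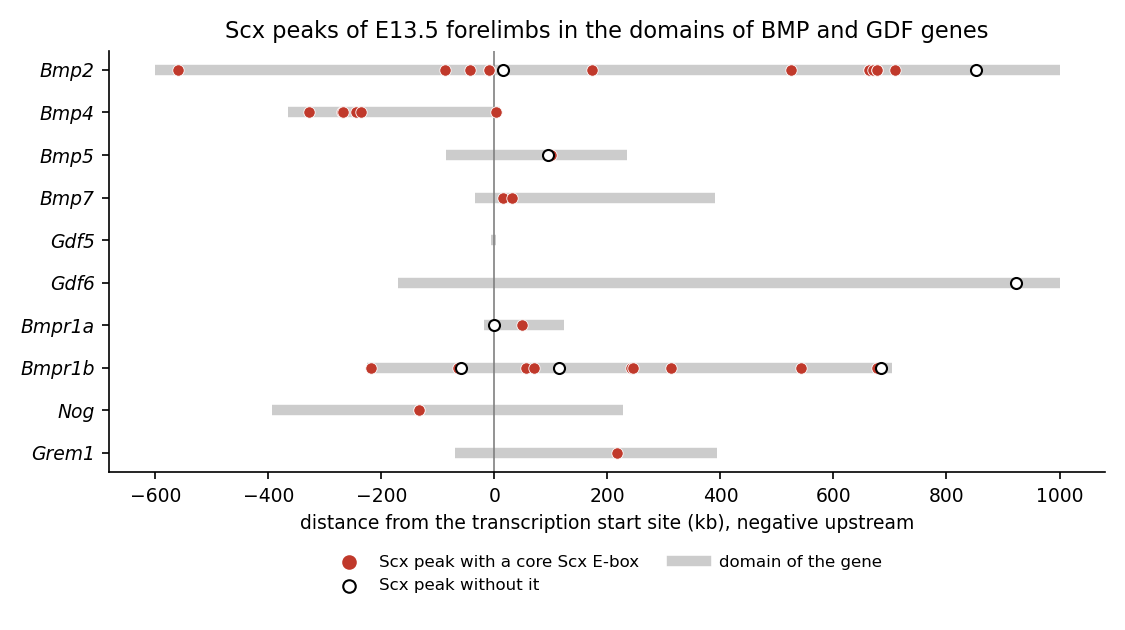
Positions of the Scx peaks of E13.5 forelimbs in the domains of the 10 genes, as distance in kb from each gene's start site (negative is upstream in the gene's own direction). Grey bars are the domains, filled red circles are peaks with a core Scx E-box and open circles are peaks without one; *Bmp2* (15 peaks) and *Bmpr1b* (13) hold most of the 44 peaks, and *Gdf5* has a short domain and no peak.

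The peaks of *Bmp2* included a near group and a far group. Those nearest to the start were 9284 bp and 9831 bp upstream and 15.2 kb downstream, followed by 1 at 42.7 kb and 1 at 86.8 kb upstream. Of the others, 6 lay 663 kb to 709 kb downstream in the stretch without protein-coding genes between *Bmp2* and *Hao1*, and 14 of the 15 were intergenic. Only 6 of the 15 peaks had *Bmp2* as the nearest protein-coding start, and 5 peaks remained when domains were extended by at most 100 kb. All 15 also lay in the domain of a neighboring gene, *Fermt1* (0.142 FPKM in Scx-/- and 0.144 FPKM in control cells) or *Hao1*.

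The sequences of 3 *Bmp2* peaks are shown, the pair nearest upstream of the start and the one with the most copies of the word that Scx binds. Scx is a basic helix-loop-helix protein that binds E-boxes (CANNTG), and the study's own motif has 3 core forms: CAGATG, which reads CATCTG on the other strand, then CAGCTG, with CATATG as the third. In every sequence printed here the plus strand of mm10 is given 5′ to 3′, with matches to this core on either strand in capitals. The first lies 9831 bp upstream, with a pair of cores 36 and 45 bp from its center and a TGGAAA, the core bound by Nfat proteins, on either strand at position 95 counted from 1 at the left end. The second is its neighbor 9284 bp upstream, and the third, 525 kb downstream, holds 3 cores and a TGGAAA.
Bmp2, 9831 bp upstream, chr2:133542228-133542427: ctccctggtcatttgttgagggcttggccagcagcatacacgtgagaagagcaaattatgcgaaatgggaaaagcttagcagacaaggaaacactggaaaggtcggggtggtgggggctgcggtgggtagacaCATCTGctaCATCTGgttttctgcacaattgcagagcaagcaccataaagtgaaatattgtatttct
Bmp2, 9284 bp upstream, chr2:133542775-133542974: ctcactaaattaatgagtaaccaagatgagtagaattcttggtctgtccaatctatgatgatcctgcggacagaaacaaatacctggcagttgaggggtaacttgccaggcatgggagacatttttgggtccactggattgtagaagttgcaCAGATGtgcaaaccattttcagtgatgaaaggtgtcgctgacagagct
Bmp2, 525239 bp downstream, chr2:134077298-134077497: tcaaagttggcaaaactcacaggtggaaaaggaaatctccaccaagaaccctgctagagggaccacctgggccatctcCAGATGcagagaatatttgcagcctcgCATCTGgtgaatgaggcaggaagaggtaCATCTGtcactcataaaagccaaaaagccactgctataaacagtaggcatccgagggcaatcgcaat

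*Bmp4* had 1 peak in its own gene and 5 far upstream. The near peak lay 3179 bp downstream of the first start and 186 bp upstream of a further annotated start of *Bmp4*, in what the annotation makes a promoter, with a GC content of 73.5% and 1 CAGCTG. The 5 far peaks, 235 kb to 328 kb upstream, lay nearer to the start of *Cdkn3* (4.07 FPKM in Scx-/- and 5.63 FPKM in control cells) than to *Bmp4*, and each held 1 core. The count of *Bmp4* depended on how the domain was drawn: it was 1 by the nearest start and 15 when genes with predicted names were left out as neighbors. The near peak is printed because it is the only Scx peak at a promoter of the ligand genes themselves.
Bmp4, 3179 bp downstream, chr14:46387390-46387589: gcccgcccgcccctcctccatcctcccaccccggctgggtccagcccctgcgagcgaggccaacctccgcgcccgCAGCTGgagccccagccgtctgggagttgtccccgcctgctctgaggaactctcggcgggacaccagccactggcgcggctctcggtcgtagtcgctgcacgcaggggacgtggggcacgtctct

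*Bmp7* and *Bmp5* had their peaks within their own introns, and in both genes every peak had the gene's own start as the nearest. In *Bmp7* they lay 15.2 kb and 32.0 kb downstream of the start. The first had a GC content of 64.5% and 3 CAGCTG words, 0, 17 and 31 bp from its center, and the second had a CATATG 7 bp from its center and a TGGAAA. In *Bmp5* they lay 95.1 kb and 99.7 kb downstream. Both held a TGGAAA and the farther one a CATATG. *Bmp5* and its neighbor *Hmgcll1* (0.523 FPKM in Scx-/- and 0.360 FPKM in control cells) share both peaks by the domain rule. The *Bmp7* pair and the CATATG peak of *Bmp5* are shown because the forms of the core differ between them.
Bmp7, 15240 bp downstream, chr2:172924981-172925180: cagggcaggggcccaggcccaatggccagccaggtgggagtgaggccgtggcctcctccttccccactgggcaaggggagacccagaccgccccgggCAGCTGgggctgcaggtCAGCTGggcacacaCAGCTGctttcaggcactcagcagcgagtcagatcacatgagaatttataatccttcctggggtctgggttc
Bmp7, 31974 bp downstream, chr2:172908247-172908446: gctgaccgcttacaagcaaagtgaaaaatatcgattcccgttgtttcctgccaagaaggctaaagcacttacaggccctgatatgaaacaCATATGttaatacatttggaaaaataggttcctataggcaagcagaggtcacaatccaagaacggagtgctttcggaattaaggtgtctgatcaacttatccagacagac
Bmp5, 99704 bp downstream, chr9:75874968-75875167: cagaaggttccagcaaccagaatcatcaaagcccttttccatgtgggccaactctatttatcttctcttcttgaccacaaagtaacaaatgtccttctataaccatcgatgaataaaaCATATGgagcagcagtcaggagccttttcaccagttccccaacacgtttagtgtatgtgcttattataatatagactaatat

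The GDF ligands had few Scx peaks near them. The single peak of *Gdf6* lay 924 kb downstream, nearer to the start of *2610301B20Rik* (10.1 FPKM in Scx-/- and 8.65 FPKM in control cells), and it had a TGGAAA and no core. For *Gdf5* the nearest peak was 11303 bp upstream, outside its domain, at the promoter of *Cep250* (10.2 FPKM in Scx-/- and 11.8 FPKM in control cells), with a GC content of 73.5% and no core. *Gdf5* lies among close neighbors, and its domain was the shortest of the 10.

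*Bmpr1a* and *Bmpr1b* are type I receptors for these ligands, and *Bmpr1b* is the one through which *Gdf5* mainly signals in the digits. *Bmpr1a* averaged 64.4 FPKM in Scx-/- cells and 59.4 FPKM in control cells (log2 ratio 0.12), rank 685 by level in Scx-/- cells and 767 in control cells. *Bmpr1b* averaged 6.54 FPKM in Scx-/- cells and 5.94 FPKM in control cells (0.14). Both receptor means were slightly higher in Scx-/- cells. The level of *Bmpr1a* was 9.85 times that of *Bmpr1b* in Scx-/- cells and 10.0 times in control cells. In size, 34.9% of all genes had a larger log2 ratio than *Bmpr1a* and 28.4% than *Bmpr1b*.

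The receptors differed in where Scx peaks lay. *Bmpr1a* (chr14:34410734-34503341, minus strand) had 2 peaks in a domain of 142 kb. The first lay 256 bp downstream of its start, where it overlapped the promoter window of *Bmpr1a* in RefSeq, and it had a GC content of 80% with no core and no E-box of any form. The second, in an intron of *Bmpr1a* 48.9 kb downstream, had 2 CAGCTG words and a TGGAAA. A further peak 46726 bp from the start lay in an intron of *Ldb3*, outside the domain. The promoter peak is shown as the only peak within 1 kb of the start used for any member, and it has no capitals because no core was found.
Bmpr1a, 256 bp downstream, chr14:34502331-34502530: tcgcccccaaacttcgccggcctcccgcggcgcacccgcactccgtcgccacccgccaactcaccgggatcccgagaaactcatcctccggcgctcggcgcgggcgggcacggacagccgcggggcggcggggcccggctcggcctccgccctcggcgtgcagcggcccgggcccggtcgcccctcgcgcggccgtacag

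*Bmpr1b* (chr3:141837136-142169425, minus strand) had 13 peaks in 928 kb and none within 50 kb of its first start. Introns of *Bmpr1b* itself held 6 of them, from 55.5 kb to 312 kb downstream. A further 3 lay between *Bmpr1b* and *Pdlim5*, 1 in an intron of *Pdlim5* (6.13 FPKM in Scx-/- and 6.79 FPKM in control cells) and 3 in introns of *Unc5c* (7.46 FPKM in Scx-/- and 7.45 FPKM in control cells). The start of *Bmpr1b* was the nearest protein-coding one for 9 of the 13. The annotation gives *Bmpr1b* 5 different starts, and the intron peak 241 kb downstream of the first lay 3462 bp downstream of another. With domains extended by at most 100 kb, 5 peaks remained. The peaks 312 kb and 246 kb downstream are shown for their cores: the first held 4, all within 40 bp of its center, and the second held 3. Peaks with 4 or more cores were uncommon, making up 1.08% of all peaks (131).
Bmpr1b, 312080 bp downstream, chr3:141857245-141857444: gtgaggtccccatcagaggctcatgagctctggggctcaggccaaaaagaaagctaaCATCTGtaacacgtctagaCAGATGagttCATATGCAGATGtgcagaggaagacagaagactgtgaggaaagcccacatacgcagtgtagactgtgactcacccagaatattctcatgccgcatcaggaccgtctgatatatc
Bmpr1b, 245750 bp downstream, chr3:141923575-141923774: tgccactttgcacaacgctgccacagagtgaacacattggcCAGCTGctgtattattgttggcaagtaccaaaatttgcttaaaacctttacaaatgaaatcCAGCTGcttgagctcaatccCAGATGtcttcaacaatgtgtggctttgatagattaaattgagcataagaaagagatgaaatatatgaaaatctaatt

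The antagonists were far apart in level. *Grem1*, which the limb mesenchyme needs to keep the signaling loop between its posterior cells and the apical ridge going, averaged 16.2 FPKM in Scx-/- cells and 15.7 FPKM in control cells (log2 ratio 0.04). *Nog*, which encodes Noggin and is needed for joints to form, averaged 0.604 FPKM in Scx-/- cells and 0.381 FPKM in control cells (0.55). At this level the ratio of *Nog* followed the amount added to the means: the log2 ratio was 0.65 with 0.01 FPKM and 0.22 with 1 FPKM. Among the 335 genes of at least 1 FPKM within 2-fold of its level, 8.66% had a larger log2 ratio in size. Genes under 1 FPKM were left out of that set, so every gene in it had a higher level than *Nog*. *Grem1* was 26.9 times as high as *Nog* in Scx-/- cells and 41.3 times as high in control cells, a difference that rests on the low *Nog* means.

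*Nog* (chr11:89300638-89302332, minus strand) had 2 overlapping peaks, 133 kb upstream in an intron of *Ankfn1* (0.145 FPKM in Scx-/- and 0.188 FPKM in control cells), which amount to 1 site. *Nog* was the nearest protein-coding start for both, and each held 1 CAGATG. *Grem1* (chr2:113746164-113758646, minus strand) had 1 peak, 217 kb downstream in an intron of *Fmn1* (0.540 FPKM in Scx-/- and 0.483 FPKM in control cells), with a CATATG 14 bp from its center. In mouse, introns of *Fmn1* are known to hold control elements that drive *Grem1* in the limb bud, and whether this peak lies in 1 of them was not tested. No peak lay within 50 kb of either start. Both sites are shown as the single sites found for the antagonists.
Nog, 132817 bp upstream, chr11:89435049-89435248: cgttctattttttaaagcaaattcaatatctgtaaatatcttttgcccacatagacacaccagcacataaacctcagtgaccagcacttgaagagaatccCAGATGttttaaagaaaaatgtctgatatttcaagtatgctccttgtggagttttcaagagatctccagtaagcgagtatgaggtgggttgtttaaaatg
Grem1, 217143 bp downstream, chr2:113541403-113541602: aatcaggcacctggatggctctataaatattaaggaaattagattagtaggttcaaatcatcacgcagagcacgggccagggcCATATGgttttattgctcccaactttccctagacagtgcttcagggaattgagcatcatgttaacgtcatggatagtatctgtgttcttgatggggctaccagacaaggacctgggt

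Long domains tend to hold more peaks, so the members' counts were set beside those of other genes. There were 44 different peaks at 38 sites, counting peaks within 500 bp of each other as 1 site. The mean was 4.4 peaks per member, against 1.32 over the 11663 genes. Among the 1423 of those genes with domains of at least 500 kb, 87.3% had a peak, with a median of 3. In that group 3.44% had more peaks than *Bmp2* and 5.55% more than *Bmpr1b*, while *Nog* with 2 and *Gdf6* with 1 lay under its median. Within 50 kb of the start, 5 of the 9 members of at least 1 FPKM had a peak (*Bmp2*, *Bmp4*, *Bmp7*, *Gdf5* and *Bmpr1a*), against 52.0% of all such genes. The members' share by this distance was close to the background. Introns held 23 of the 44 peaks, 18 were intergenic and 3 at promoters, and 43 also lay in another gene's domain.

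**Figure D3:**
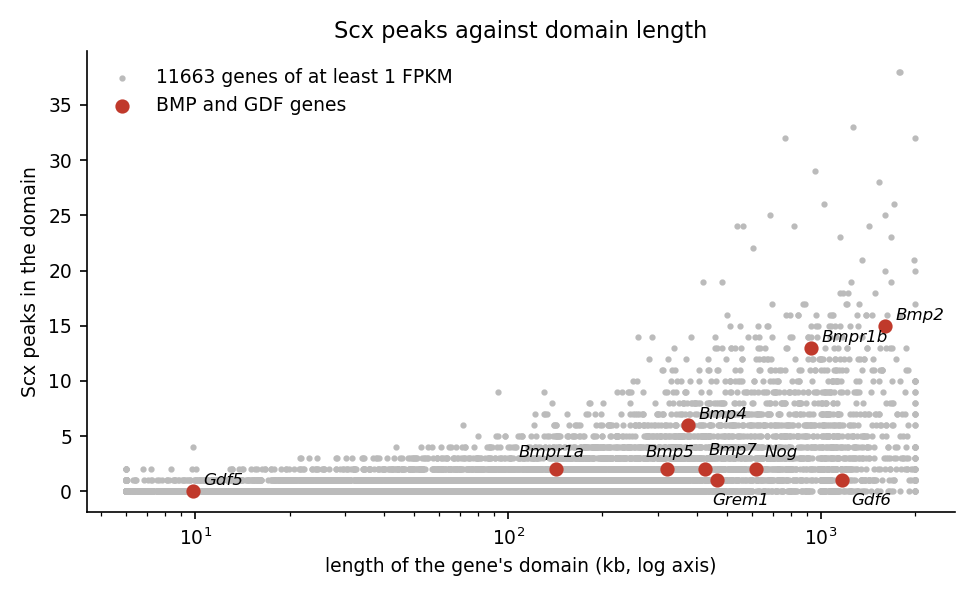
Number of Scx peaks in a gene's domain against the length of the domain in kb (log axis), with a grey point for each of 11663 genes of at least 1 FPKM and a red point for each of the 10 BMP and GDF genes. *Bmp2* (15 peaks in 1601 kb) and *Bmpr1b* (13 in 928 kb) lie in the upper part of the cloud at their length, *Gdf6* (1 in 1170 kb) lies near its floor, and *Gdf5* has the shortest domain of the 10.

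A core E-box was found in 36 of the 44 peaks, 81.8% (95% Wilson interval 68.0 to 90.5), against 60.3% of all 12097 peaks. Outside promoters the share was 82.9% of the members' 41 peaks, against 67.9% of all. Intervals cover counting error only, and peaks of 1 site are not independent. By form, CAGATG was in 17 of the 44 peaks (38.6%), against 38.9% of all peaks, and outside promoters in 39.0%, against 45.5%. CAGCTG was in 15 (34.1%), against 27.98% of all peaks. CATATG was in 9 (20.5%, 11.2 to 34.5), against 7.18% of all peaks, and outside promoters in 21.95%, against 8.85%. Of the 3 forms, CATATG had a share furthest from that of all peaks, and its 9 peaks belonged to *Bmp2*, *Bmp4*, *Bmp5*, *Bmp7*, *Bmpr1b* and *Grem1*. The members' peaks also had a lower GC content, 45.5% on average against 53.5% in all peaks, and 43.7% against 49.2% outside promoters, and the part of base composition in these shares was not tested. An E-box of any form was in 42 peaks (95.5%), against 78.4% of all peaks, and outside promoters in 97.6%, against 85.4%.

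The cores lay near the peak centers. Of 53 core matches in the members' peaks, 25 were CAGATG, 19 CAGCTG and 9 CATATG, and 40 lay within 50 bp of the center, 75.5% against 69.5% in all peaks. The median distance was 25 bp, against 31 bp. At least 2 cores were found in 12 peaks (27.3%), against 22.7% of all peaks, and 4 peaks held at least 3, in *Bmp2*, *Bmp7* and *Bmpr1b*, while 5.56% of all peaks did. The Nfat core TGGAAA, which reads TTTCCA on the other strand, was in 15 peaks, 34.1% against 31.5% of all, and outside promoters in 36.6%, against 37.6%, shares near the background. The GC-rich core GGCGCC, bound by BMP-activated Smad proteins, was in none of the 44, against 9.61% of all peaks and 4.92% of those outside promoters. A count of 0 in 44 allows a share of up to 6.82% (3 of 44), and the upper end of its Wilson interval, drawn in the plot of motif shares, is 8.03%. All motifs were searched on both strands, the core forms are also E-boxes, and a match is a description of the sequence only.

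**Figure D4:**
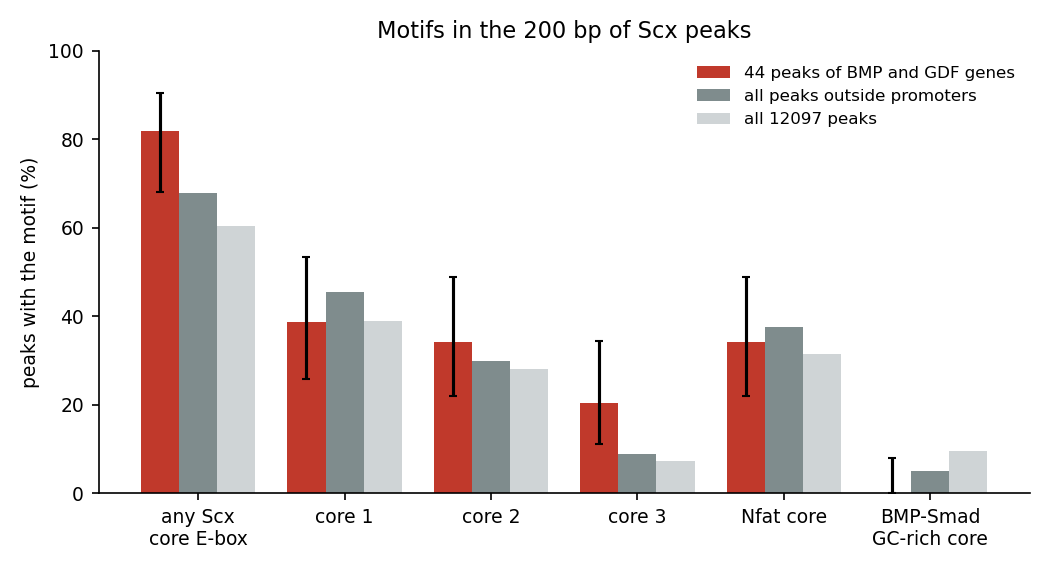
Share of peaks (%) whose 200 bp hold each motif, for the 44 peaks of the BMP and GDF genes (red, with 95% Wilson intervals), all peaks outside promoters (dark grey) and all 12097 peaks (light grey). Core 1 is CAGATG, core 2 CAGCTG, core 3 CATATG, the Nfat core TGGAAA and the GC-rich core GGCGCC; any core is at 81.8%, core 3 at 20.5% against 7.18% of all peaks, and the GC-rich core is absent from the red bars.

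Other genes of the pathway with at least 1 FPKM also stayed under 1.5-fold. Of the further genes in 5 lists, 68 were analysed here and 59 had at least 1 FPKM. None of the 59 was 1.5-fold higher or lower, against 1.27% of all genes, so their lack of such ratios was near the background. Their median log2 ratio was 0.01. In Scx-/- cells 3 of the 59 were at least 25% higher and none was 20% lower, against 3.5% and 2.88% of all genes, so the number higher was near the background. *Smoc1*, a secreted protein that modulates BMP signaling, averaged 11.0 FPKM in Scx-/- cells and 7.98 FPKM in control cells (log2 ratio 0.46), and its relative *Smoc2* averaged 85.5 FPKM in Scx-/- cells and 66.0 FPKM in control cells (0.37). The study's own comparison of these samples reported *Smoc2* as significantly higher in Scx-/- cells, so the 1.5-fold cut on means misses at least that gene. *Hfe2*, the BMP co-receptor hemojuvelin, averaged 1.82 FPKM in Scx-/- cells and 1.32 FPKM in control cells (0.44). These 3 were named after their values were seen.

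By list, the receptors and co-receptors leaned most to one side, with 10 of 11 ratios above 1 and a median log2 ratio of 0.11. The median over all genes was -0.00. This list was singled out from 5 by its values, and its lean was not tested. *Bmpr2*, the type II receptor, averaged 43.4 FPKM in Scx-/- cells and 42.6 FPKM in control cells, and *Neo1*, a receptor of the repulsive guidance molecules, 59.4 FPKM in Scx-/- cells and 57.8 FPKM in control cells. Among 18 other antagonists and modulators 13 ratios were above 1 (median 0.09), and *Fstl1*, a secreted follistatin-like protein and the most abundant gene of the lists, averaged 699 FPKM in Scx-/- cells and 702 FPKM in control cells. The 6 other ligands were evenly divided (3 above 1, median -0.04), and the most abundant were *Bmp3* with 17.2 FPKM in Scx-/- cells and 18.4 FPKM in control cells, and *Gdf10* with 15.2 FPKM in Scx-/- cells and 13.7 FPKM in control cells.

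Downstream of the receptors the medians were slightly below 0. Of 14 transducers and inhibitors inside the cell, 5 ratios were above 1 (median -0.02), with *Smad5* at 39.7 FPKM in Scx-/- cells and 37.8 FPKM in control cells, and *Ski*, a repressor of Smad activity, at 73.7 FPKM in Scx-/- cells and 74.3 FPKM in control cells. Of 13 genes that commonly respond to BMP, 3 ratios were above 1 and 10 below (median -0.09). *Id1*, an inhibitor of basic helix-loop-helix proteins, averaged 36.4 FPKM in Scx-/- cells and 38.9 FPKM in control cells, and its relative *Id3* 60.9 FPKM in Scx-/- cells and 63.4 FPKM in control cells. *Bambi*, *Smad6* and *Smad7* are in both of these lists. Over all genes the 5th to 95th percentile was -0.25 to 0.27, and the lower and upper quartiles were -0.08 and 0.08. These ranges describe single genes, so they do not show how far the median of a list would vary. The medians of the receptors (0.11), the modulators (0.09) and the BMP response genes (-0.09) lay outside the quartiles. Those of the other ligands (-0.04) and the transducers (-0.02) lay inside.

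**Figure D5:**
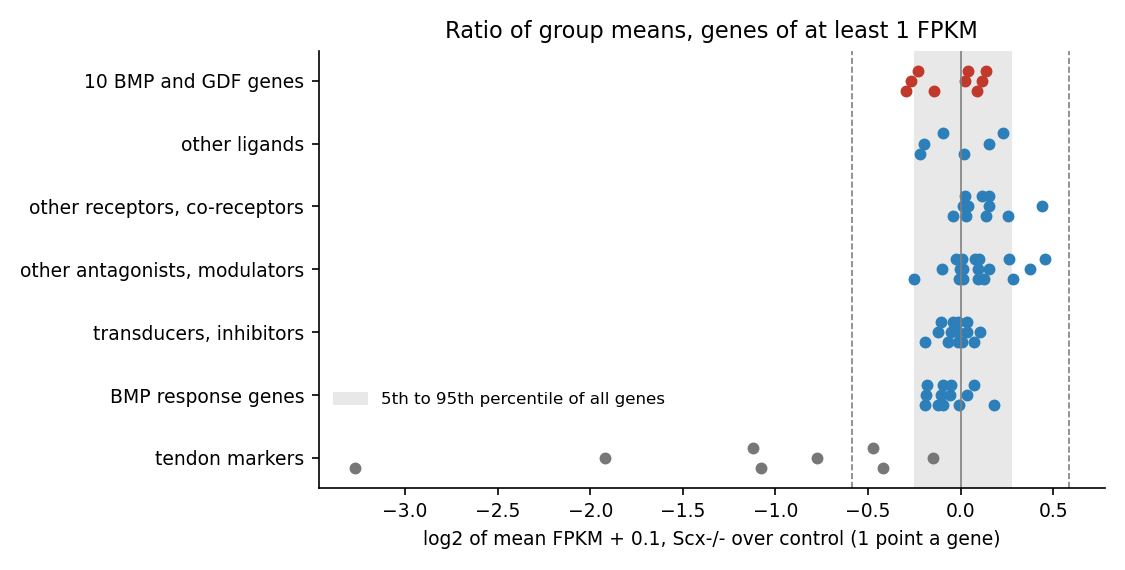
Log2 ratio of mean FPKM + 0.1, Scx-/- over control, with 1 point for each gene of at least 1 FPKM, in rows for the BMP and GDF genes (red), 5 lists of other pathway genes (blue) and the tendon markers (grey). Grey shading is the 5th to 95th percentile of all 12274 genes (-0.25 to 0.27) and dashed lines mark 1.5-fold. No pathway gene passes a dashed line, and 5 of 8 tendon markers lie below the lower one. The tendon row includes *Scx*, the targeted gene, and genes that the study reported as lower in these same samples.

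Of these 59 genes, 41 had a Scx peak in the domain, against 46.7% of all genes of at least 1 FPKM, and 38 had one within 50 kb, against 52.0%. Both shares were above those of all genes, and neither difference was tested. Many of their domains were longer than the median of 99.6 kb over all such genes, so the count by domain has to be read against length. The count within 50 kb does not depend on domain length. The highest counts were 13 for *Bmper*, a secreted BMP-binding protein with a domain of 1616 kb, and 10 each for *Neo1* (462 kb), *Rgmb*, a BMP co-receptor (1121 kb), and *Tbx3*, a limb transcription factor (1159 kb). *Smoc2* had 7 peaks and *Smoc1* had none. *Fst*, *Msx1*, *Msx2* and *Dlx5* were among the 18 with no peak in the domain, and had none within 50 kb. *Chrd*, whose domain was only 13.0 kb, had none in it but 3 within 50 kb. These names too were chosen after the counts were seen.

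In the same samples the targeted gene *Scx* averaged 41.9 FPKM in Scx-/- cells and 88.6 FPKM in control cells. With 1 value per gene, reads from the replaced and the retained parts of its transcript cannot be told apart. *Xist* averaged 24.9 FPKM in Scx-/- cells and 175 FPKM in control cells, a sign that the groups differed in sex makeup, and the part of sex in the members' ratios was not tested. Of 8 tendon markers 5 were at least 1.5-fold lower in Scx-/- cells, with a summed level of 290 FPKM in Scx-/- and 684 FPKM in control cells. That list holds *Scx* itself and *Tnmd*, *Fmod*, *Kera*, *Mkx*, *Thbs4* and *Htra3*, which the study reported as lower in these same samples. Its lower sum is therefore no independent observation. The other 9 marker lists had less unequal sums. Each sum took every gene of the list that had a value, including those under 1 FPKM. Cartilage genes (9) summed to 118 FPKM in Scx-/- and 141 FPKM in control cells. Perichondrium and bone genes (6) summed to 18.1 FPKM in Scx-/- and 15.2 FPKM in control cells. Joint genes (5, with *Gdf5* among them) summed to 34.7 FPKM in Scx-/- and 33.4 FPKM in control cells. Muscle genes (8) summed to 123 FPKM in Scx-/- and 125 FPKM in control cells. Endothelial genes (5) summed to 27.5 FPKM in Scx-/- and 27.8 FPKM in control cells. Macrophage genes (6) summed to 13.47 FPKM in Scx-/- and 10.7 FPKM in control cells. Red cell genes (7) summed to 241 FPKM in Scx-/- and 178 FPKM in control cells. Epidermal genes (6) summed to 31.0 FPKM in Scx-/- and 28.05 FPKM in control cells. Nerve genes (5) summed to 3.81 FPKM in Scx-/- and 3.19 FPKM in control cells. Among the genes of at least 1 FPKM in these 9 lists, 1 bone gene and 1 macrophage gene were at least 1.5-fold higher in Scx-/- cells. None of them was 1.5-fold lower. Of the 7 cartilage genes of at least 1 FPKM, 3 had ratios above 1 and 4 below (median log2 ratio -0.03). Most of the lower cartilage sum was *Col2a1*, the main cartilage collagen, with 57.1 FPKM in Scx-/- and 78.3 FPKM in control cells. The part of cell makeup in the members' ratios was not tested.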

How the data were processed

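Groups were taken from the sample labels, and all 12 samples could be assigned. For RNA-seq, the authors' methods describe alignment to mm10, counting per gene, removal of genes of the Y chromosome and a deposited mean FPKM per genotype. The deposited table also gives a log2 fold change, p-value, FDR and status from the authors' own comparison (DESeq2 after removal of unwanted variation), which were not used. For ChIP-seq, the authors brought samples to equal depth, removed duplicates, called peaks for each ChIP sample against input, merged them over the replicates and kept those that passed a test of read counts. The deposited table gives 200 bp positions with a score of 0 throughout, so the support of single peaks is unknown. Tools in the submitters' processing notes are STAR 2.7.4, HOMER 4.11, Subread, edgeR, DESeq2 and featureCounts, with the gene annotation not given in the sources used here.

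The members and gene lists were chosen with earlier results of these data known. Log2 ratios used a pseudocount of 0.1 FPKM, and counts of genes used those of at least 1 FPKM in either mean, with a 1.5-fold ratio or a mean at least 25% higher or 20% lower. The text names all members, *Scx*, *Xist*, any pathway gene past 1.5-fold and the 2 most abundant of each list; neighboring genes and other names were chosen after their values were seen. Date-like strings stood in place of 21 symbols, and 2 entries shared a symbol. Domains used the protein-coding starts of GENCODE M21 on GRCm38 (mm10), with at most 1000 kb of extension, and promoters ran from 1000 bp upstream to 100 bp downstream of any start. Motifs were exact matches on both strands of the reference sequence. The RefSeq promoter table (GRCm38.p6) held 5 of the members. Computations used Python 3.11.15, numpy 2.4.6, pandas 2.3.3, scipy 1.17.1, pysam 0.24.0, samtools 1.23.1 and matplotlib 3.10.9, and the ratio, domain and motif steps were tested on simulated data. Alternatives were other pseudocounts, scalings, folds, filters, domain rules and motif windows.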

Additional observations from a re-analysis of the deposited data

How the results depend on the processing

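No paired analysis was possible because the table holds no values of single samples, and for the same reason neither a replicate block nor leaving out each replicate was run. Of 40 alternative log2 ratios of the members, 38 stayed within 0.1 of the value reported, none changed sign, and the 2 that moved were both *Nog*. No member passed 1.5-fold under the alternatives planned, but with 0.01 FPKM added and no filter on low values together, a setting chosen after seeing the data, 1 did (*Nog*). For the other pathway genes, 3 were at least 25% higher, and without the filter 1 was higher (*Gdf9*) and 1 lower (*Gata2*), both under 1 FPKM in both means.

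Peak counts depended on the assignment. The 44 peaks of the members became 17 with domains extended by at most 100 kb, 24 by the nearest start and 11 within 50 kb of the start, where 5 members had 1 or more in place of 9. They were 38 after merging neighbors and 54 when genes with predicted names were left out, a setting chosen after seeing the data. The share of peaks with a core was 63.6% in the central 100 bp, against 47.4% of all peaks. The share with TGGAAA was 15.9% in the central 100 bp, against 20.6% of all peaks, and 50% in 400 bp, against 44.4%. Single samples and peak heights, not analysed here, limit what the means and positions can show.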
